A study of Mus musculus with 2 samples.

Results

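The 10 genes described here encode receptors for neuropeptides and opioids that couple to G proteins: the tachykinin receptor Tacr1, the opioid receptors Oprm1 (mu), Oprd1 (delta) and Oprk1 (kappa), the bombesin-like peptide receptors Nmbr and Grpr, the somatostatin receptors Sstr1, Sstr2 and Sstr4, and the neurotensin receptor Ntsr2. They were taken by symbol from the gene and transcript tables, not by their values, and all 10 were found among 43346 mouse genes, of which 21474 are annotated as protein-coding. The tables come from total RNA of hindbrain of newborn mice (postnatal day 0, strain B6NTac;B6NCrl/Lap, sexes pooled), depleted of ribosomal RNA. The only group holds 2 libraries, replicate 1 from a pool of 15 mice and replicate 2 from a pool whose size the labels do not give. No treatment, mutation or second condition was studied, so values were compared between genes and between the libraries.

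Neuropeptides are cut from larger precursor proteins in neurons and released from dense-core vesicles, and each acts on one or more receptors with a membrane-spanning bundle of helices. Opioid and somatostatin receptors couple to Gi and Go proteins, which lower cyclic AMP, open inwardly rectifying potassium channels and so quieten neurons. Tacr1, Nmbr and Grpr couple mainly to Gq, which activates phospholipase C and excites neurons. In the hindbrain such receptors are known from circuits of breathing, swallowing, pain and itch, and mu opioid receptors on medullary and pontine neurons are a site at which opioids depress breathing.

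The libraries held 54313140 and 77142270 expected counts, estimated fragment counts per gene that need not be whole. Levels are given as TPM (counts per effective length, scaled to a fixed sum in each library) with the mean ± SD over both libraries (n = 2). Nuclear protein-coding genes made up 28.1% of TPM in replicate 1 and 19.3% in replicate 2, and the TPM of a coding gene detected in both was at the median 1.44 times higher in replicate 1. Gaps in TPM between the libraries include this common shift, so ratios between libraries are given from TMM-scaled counts. Of 14 hindbrain markers such as the Hox genes, 13 reached 1 TPM in both libraries, against 1 of 12 forebrain markers, Neurod6 (6.77 TPM in replicate 1 and 4.0 TPM in replicate 2). All 9 neuronal, all 8 astrocyte and 7 of 8 oligodendrocyte-lineage markers did, so these are levels of a mixed tissue, in which fewer cells of a type and less RNA per cell cannot be told apart.

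Sequences are shown first where the genes' transcripts differ in the encoded protein. Sstr2, at chr11:113619342-113626028 on the plus strand (build mm10), has 2 annotated coding ends. The transcript Sstr2-203 reads on through a stretch that Sstr2-201 and Sstr2-202 splice out as an intron of 339 nt (chr11:113625250-113625588). Their proteins therefore share all but the carboxyl-terminal tail and are known as the long sst2A and the short sst2B form. The coding ends follow, 5′ to 3′, with the last 30 shared bases in lower case and the bases particular to each end in capitals.
Sstr2-203: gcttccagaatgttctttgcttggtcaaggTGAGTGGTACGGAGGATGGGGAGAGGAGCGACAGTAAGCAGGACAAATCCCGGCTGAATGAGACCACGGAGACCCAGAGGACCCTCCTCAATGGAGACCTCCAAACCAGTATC
Sstr2-201: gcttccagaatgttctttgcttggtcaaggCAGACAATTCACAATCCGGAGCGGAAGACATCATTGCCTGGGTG
The capitals cover 113 coding bases at chr11:113625251-113625363, in exon 2 of 2, for the long form. For the short form they cover 44 coding bases at chr11:113625590-113625633, also in exon 2 of 2. The carboxyl-terminal tail is where receptors of this class are phosphorylated and bound by arrestins.

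Oprm1, at chr10:6758506-7038198 on the plus strand, has 31 transcripts in the tables, which differ in their starts and in the last coding exon. The coding ends of 4 protein-coding transcripts with counts are shown because they differ only after a shared stretch of 1158 coding bases. They were picked after their shares were seen. Lower case marks the last 30 shared bases and capitals the coding bases of the last exon.
Oprm1-215: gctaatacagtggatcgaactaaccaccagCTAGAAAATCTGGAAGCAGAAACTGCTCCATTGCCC
Oprm1-212: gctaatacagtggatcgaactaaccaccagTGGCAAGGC
Oprm1-213: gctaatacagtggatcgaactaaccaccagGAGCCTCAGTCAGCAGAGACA
Oprm1-230: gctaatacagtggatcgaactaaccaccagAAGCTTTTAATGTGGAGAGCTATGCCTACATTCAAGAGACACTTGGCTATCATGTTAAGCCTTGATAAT
These ends lie at chr10:6849806-6849841 (Oprm1-215, 36 bases), chr10:6831937-6831945 (Oprm1-212, 9 bases), chr10:6839535-6839555 (Oprm1-213, 21 bases) and chr10:6840566-6840634 (Oprm1-230, 69 bases). The end of Oprm1-215 is the classical MOR-1 end of the mu receptor.

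The somatostatin receptor genes Sstr2 and Sstr1 had the highest levels of the 10 genes. Sstr2 had 16.4 TPM in replicate 1 and 18.0 TPM in replicate 2 (17.2 ± 1.11), from 1997 and 4188 counts. Sstr1 had 13.1 and 9.39 TPM (11.2 ± 2.60), from 1538 and 2335 counts. Both genes encode inhibitory receptors for somatostatin and lay above every other member in each library by the point estimates used here. Sstr2 stood at the 83.0 and 89.9 percentile of protein-coding genes, and Sstr1 at the 78.8 and 79.5 percentile. Sstr4, a somatostatin receptor encoded by a single exon (chr2:148395344-148396767, plus strand), was lower, at 3.90 and 2.56 TPM (3.23 ± 0.948) from 355 and 478 counts. Sstr1 (chr12:58211772-58214444, plus strand) exceeded Sstr4 by 3.35-fold and 3.67-fold in the libraries. The other receptors of the family were lower again, Sstr3 at 0.815 ± 0.0778 TPM and Sstr5 at 0.535 ± 0.120 TPM. Sstr2 made up 47.1% and 57.8% of the summed TPM of the 5 somatostatin receptors.

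**Figure D1:**
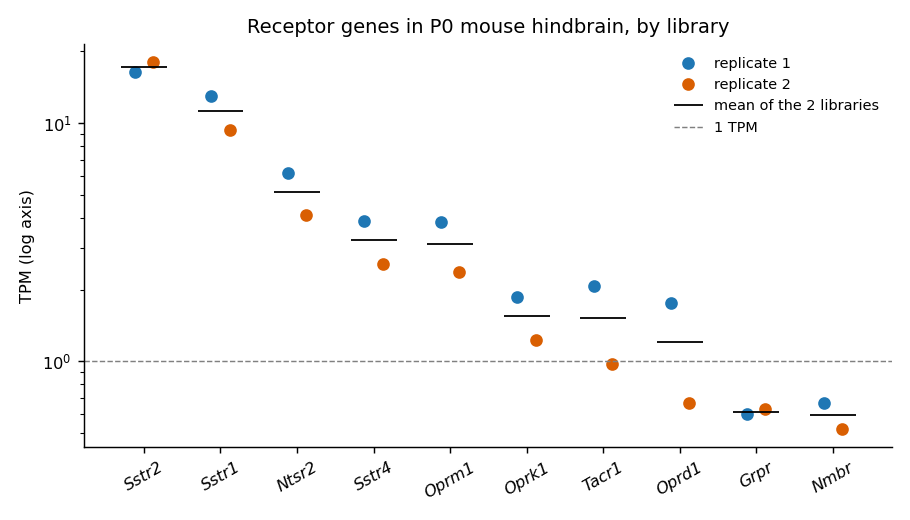
TPM of the 10 receptor genes (log axis) in replicate 1 (blue) and replicate 2 (orange), with the mean of both as a bar, ordered by the mean, and a dashed line at 1 TPM. Levels run from 17.2 TPM for Sstr2 to 0.595 TPM for Nmbr, and Tacr1, Oprd1, Grpr and Nmbr fall below 1 TPM in at least 1 library.

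Ntsr2, a neurotensin receptor known mainly from astrocytes, was the third in level. It had 6.18 and 4.13 TPM (5.16 ± 1.45) from 624 and 855 counts, at chr12:16653382-16660227 on the plus strand. Its relative Ntsr1, the high-affinity neurotensin receptor of neurons, had 3.09 and 1.73 TPM. Ntsr2 was 2.00-fold and 2.39-fold above Ntsr1.

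Among the opioid receptors, Oprm1 was highest of the classical 3. Oprm1, the receptor on which morphine acts, had 3.86 and 2.38 TPM (3.12 ± 1.05) from 561 and 653 counts. Oprk1, the receptor for dynorphins (chr1:5588466-5606131, plus strand), had 1.87 and 1.23 TPM (1.55 ± 0.453) from 428 and 752 counts. Oprd1, for which enkephalins are the main ligands (chr4:132110726-132144486, minus strand), had 1.75 and 0.67 TPM (1.21 ± 0.764) from 530 and 411 counts. Oprm1 exceeded Oprk1 by 2.06-fold and 1.93-fold and Oprd1 by 2.21-fold and 3.55-fold. The 3 genes made up 51.6%, 25.0% and 23.4% of their summed TPM in replicate 1, in the order Oprm1, Oprk1 and Oprd1, and 55.6%, 28.7% and 15.7% in replicate 2. All 3 were far below the fourth receptor of the family, Oprl1, which binds nociceptin rather than classical opioids. Oprl1 had 49.5 and 42.3 TPM (45.9 ± 5.08), 12.8-fold and 17.8-fold above Oprm1, and supplied 86.9% and 90.8% of the TPM of the opioid receptor family.

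The Oprm1 level rests on how fragments were divided among its transcripts. The deposited posterior mean, an estimate averaged over possible assignments, was 11.9 and 9.59 TPM (mean 10.8) in place of 3.12 TPM, and would put Oprm1 between Sstr1 and Ntsr2 by the mean and in replicate 1, and above Sstr1 (9.34 TPM) in replicate 2. The deposited interval for its TPM ran from 3.99 to 27.4 in replicate 1 and from 2.84 to 19.6 in replicate 2, so the point estimate lay below it in both libraries. With posterior means, Oprl1 was 4.13-fold and 4.40-fold above Oprm1 and supplied 76.0% and 78.6% of the family, and Oprm1 took 76.8% and 83.2% of the summed TPM of the classical 3. The posterior mean gave 64.0% and 25.0% of Oprm1 to Oprm1-221, a transcript of only 256 nt with 0 counts in both libraries under the point estimate. That length is below the mean fragment length of 315 nt in replicate 1 and 297 nt in replicate 2, and its deposited effective length, by which counts are divided, was 1.58 and 2.51 nt. In replicate 2 another model of 242 nt without counts, Oprm1-227, took 46.6% of the posterior mean. The gene counts of 561 and 653 do not depend on this division.

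The bombesin-like peptide receptors had the lowest means of the 10, and the tachykinin receptor lay between Oprk1 and Oprd1 by mean TPM. Tacr1, the substance P receptor (chr6:82402334-82560104, plus strand), had 2.08 and 0.97 TPM (1.53 ± 0.785) from 802 and 760 counts. Grpr, the receptor for gastrin-releasing peptide, known from itch and from sighing (chrX:163513904-163549677, minus strand), had 0.60 and 0.63 TPM (0.615 ± 0.0212) from 108 and 231 counts. Nmbr, the receptor for neuromedin B, known from the same sighing circuit (chr10:14705591-14770850, plus strand), had 0.67 and 0.52 TPM (0.595 ± 0.106) from 71 and 95 counts. Both were below 1 TPM, although Nmbr had far more than the 3 counts used here as the floor of counting, which equal 0.0285 and 0.0165 TPM for it. In replicate 1 the point estimate of Nmbr lay below its deposited interval (0.687 to 1.23 TPM). The posterior means of Nmbr (0.95 and 0.66 TPM) were above those of Grpr (0.60 and 0.63 TPM) in both libraries. Of the relatives of these receptors, Tacr3, the neurokinin B receptor, had 1.16 and 1.45 TPM. Tacr3 was below Tacr1 in replicate 1 and above it in replicate 2. Brs3 had 0.15 and 0.04 TPM, from 31 and 15 counts. Tacr2 was listed at 0 in both libraries, which allows up to 0.0188 and 0.00925 TPM.

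Of the 10 genes, 6 reached 1 TPM in both libraries: Sstr2, Sstr1, Ntsr2, Sstr4, Oprm1 and Oprk1. Of all protein-coding genes 54.7% did, so the share among the receptors was near that of coding genes at large, and their median of 2.34 TPM was close to the 2.08 TPM of all protein-coding genes. The count turned on the scale. With TPM rescaled to the same sum over nuclear protein-coding genes only, all 10 exceeded 1 in both libraries. The lowest value was that of Grpr in replicate 1 (2.14). Rescaling scales up every nuclear coding gene by a common factor per library. The share of all coding genes above 1 on that scale was not computed.

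By level, 36 of the 45 pairs of receptors differed beyond their spread. A pair was counted where the ratio of TPM had the same direction in both libraries, its mean log2 exceeded 2 SD of the library values and the exact 95% binomial interval of the count ratio per length excluded 1 in each library. These intervals cover counting error only. The rule was not applied to pairs of other genes, so the count of 36 has no background to be set against. Steps between neighbours that met this were Sstr1 over Ntsr2 (2.19-fold on average), Ntsr2 over Sstr4 (1.60-fold) and Oprm1 over Oprk1 (2.00-fold). Sstr2 and Sstr1 did not differ beyond their spread, with Sstr2 1.26-fold higher in replicate 1 (interval 1.18 to 1.35) and 1.92-fold higher in replicate 2 (1.82 to 2.02). By the point estimates, Sstr4 and Oprm1 were 1.01-fold (0.884 to 1.16) and 1.08-fold (0.956 to 1.21) apart. Oprk1, Tacr1 and Oprd1 were not separated from each other, nor were Grpr and Nmbr (0.896-fold, 0.650 to 1.21, and 1.21-fold, 0.939 to 1.54). The other pairs that failed were Tacr1 with Grpr and Oprd1 with Grpr and with Nmbr, where the libraries gave unequal ratios. By the point estimates, the ranks of the 5 highest genes were the same in both libraries, which does not hold with the posterior mean of Oprm1.

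None of the 10 genes differed more than 2-fold between the libraries after scaling by TMM (0 of 10). Of 17629 genes with mean counts from 10 upwards, 14.9% did, and of 9737 genes with mean counts in the range of the receptors (83.0 to 3093), 6.85% did. The log2 ratio of replicate 2 to replicate 1 was -0.87 for Oprd1, -0.59 for Tacr1, 0.58 for Grpr and 0.56 for Sstr2, and between -0.29 and 0.30 for the other 6. Sstr2 was the member farthest out for its depth. Of 3055 genes with a mean count within 1.5 times of its own, 1.67% had a ratio at least as far from 0, against 7.57% for Oprd1, 13.0% for Tacr1 and 46.8% for Grpr. These shares describe 2 libraries and are not tests. Of the forebrain markers with enough counts, 4 of 9 differed over 2-fold, 1 of them higher in replicate 2. Their median log2 ratio was -0.45. Of the sensory ganglion markers 3 of 9 differed over 2-fold, all lower in replicate 2, with a median of -0.20. Mrgprd and Prdm12 were at 0 in both libraries. The whole lists summed to 10.2 and 5.44 TPM (forebrain) and to 15.5 and 10.4 TPM (ganglion). These sums include the common 1.44-fold shift in TPM. Neurod6, the largest part of the forebrain sum, had a log2 ratio of -0.24. Of the 3 detected ganglion markers, Calca had 0.26, Isl1 -0.20 and Pou4f1 -0.09. The part of such tissue in the lower Oprd1 and Tacr1 counts of replicate 2 was not tested.

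**Figure D2:**
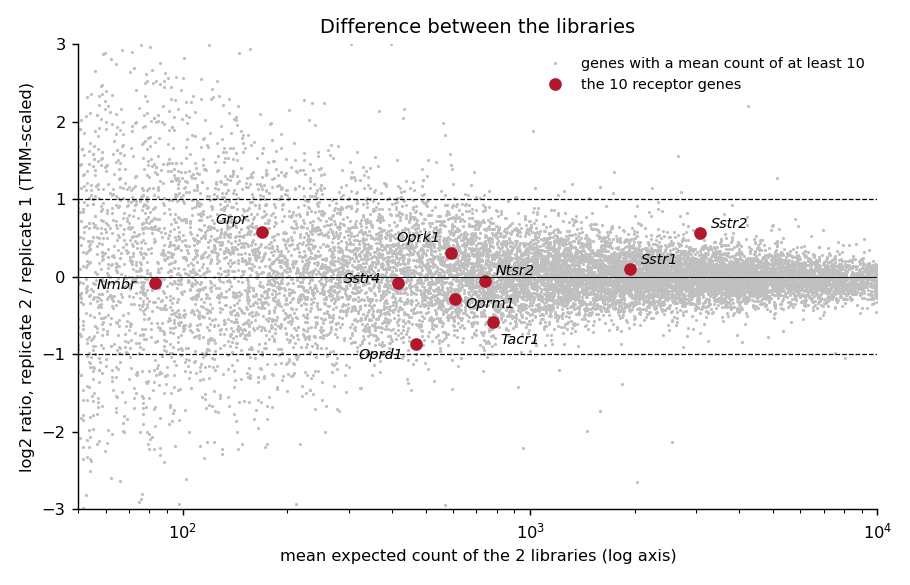
Log2 ratio of TMM-scaled counts, replicate 2 over replicate 1, against the mean expected count of both libraries (log axis, shown from 50 to 10000 counts and from -3 to 3). Grey points are all genes, red points the 10 receptor genes, and dashed lines mark 2-fold: all 10 lie inside the lines, with Oprd1 (-0.87) nearest to the lower one.

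Of the receptor genes, 5 have a single transcript in the tables: Tacr1, Oprd1, Grpr, Sstr4 and Ntsr2. In the other 5 the same transcript led in both libraries, against 76.7% of coding genes of 2 or more transcripts with enough counts. The leading share nevertheless moved by a median of 18.7 percentage points between the libraries, against 8.87 over those coding genes. The 5 changes ran from 8.70 (Sstr2) to 41.5 (Nmbr, with 71 and 95 counts), and Oprm1 has 31 transcripts. The coding genes were not matched to these 5 for depth or number of transcripts, so the contrast is not a trait of the receptors. For Oprm1 the posterior mean shares do not give the same leading transcript as the point estimate.

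Of these 5 genes, Sstr2 had the smallest change of the leading share between the libraries (8.70 percentage points). The long-tailed sst2A form, Sstr2-203, took 66.0% and 57.2% of the gene's TPM (61.6 ± 6.15). The short-tailed sst2B form took the remaining 34.0% and 42.8%, mostly as Sstr2-201 (28.1% and 36.6%) and less as Sstr2-202 (5.99% and 6.19%), which encode the same protein. Posterior mean shares of Sstr2-203 were 66.0% and 57.2%. The long form is the one with no splice within the shown stretch, so unspliced Sstr2 RNA in total RNA also counts towards it, and its part was not tested. Sstr2 also lies wholly inside Slc39a11 on the opposite strand (19.0 and 12.1 TPM). Whether counting used strand is not stated, and reads of the 2 genes could then not be told apart.

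Oprm1-215, which carries the MOR-1 end shown above, took 70.8% and 46.6% of Oprm1, from 460 and 380 estimated counts. Posterior mean shares of Oprm1-215 were far lower, at 21.2% and 10.1%. All 3 annotated transcripts with its coding sequence start at the distal start at position 6758593, which lies 30282 nt before the first coding base. The share of the MOR-1 end and the share of the distal start can therefore not be told apart in these estimates. The other transcripts had unequal shares in the libraries. Oprm1-210, annotated as a target of nonsense-mediated decay, had 20.2% and 4.2%. Oprm1-229, a short coding model, had 0% and 20.7%. The alternative ends Oprm1-212, Oprm1-213 and Oprm1-230 had counts in 1 library each, with 8.09%, 7.91% and 5.04%. Only 2 of 31 transcripts had counts in both libraries and 23 had none in either. Oprm1 overlaps Ipcef1 (2.38 and 2.33 TPM) on the opposite strand.

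Oprk1 was split between Oprk1-204 (52.3% and 69.3%) and Oprk1-201 (47.5% and 5.76%), with Oprk1-203 at 0% and 19.1%. All 3 encode the same protein of 380 codons, so 99.5% and 94.4% of Oprk1 TPM carried 1 coding sequence and the libraries differed in the untranslated ends. Oprk1-204 is 4675 nt long and Oprk1-201 1376 nt. The mean transcript length of the gene was 3106 nt in replicate 1 and 3984 nt in replicate 2. Scaled counts of Oprk1 were 1.23-fold higher in replicate 2 while its TPM was lower, and Sstr1 showed the same (1.07-fold in scaled counts), beside the common shift of coding genes to lower TPM in replicate 2. Sstr1-202 took 100% and 81.3% of Sstr1, and Sstr1-201, with the same coding sequence of 391 codons, the rest. Nmbr-201, the full coding transcript, took 100% and 58.5% of Nmbr. In replicate 2 the rest went to Nmbr-203 (26.2%, nonsense-mediated decay) and Nmbr-202 (15.3%, retained intron), which had 24.0 and 5 counts. Gje1, Gm8355 and B230364G03Rik overlap Nmbr on the opposite strand, with at most 0.38 TPM. With 71 and 95 counts for the gene, Nmbr shares are imprecise.

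**Figure D3:**
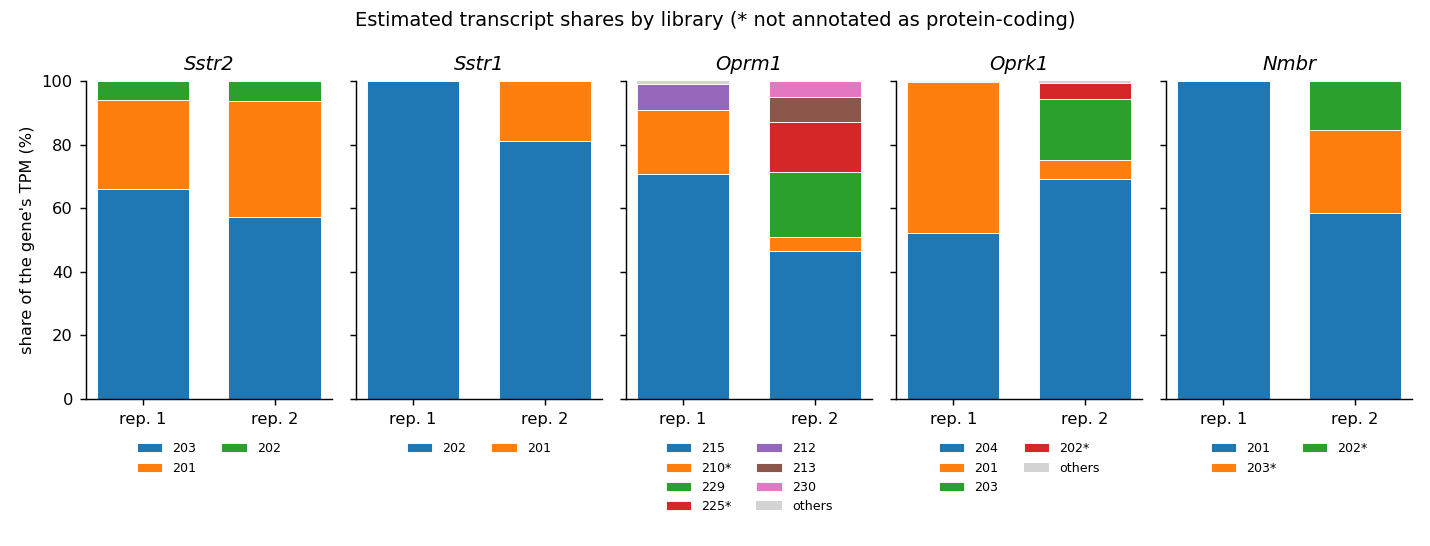
Share of each gene's TPM given to each transcript, as stacked bars for replicate 1 and replicate 2, for the 5 receptor genes with more than 1 transcript (legend gives the number after the gene symbol, * marks transcripts not annotated as protein-coding). The leading share changes least for Sstr2, with Sstr2-203 at 66.0% in replicate 1 and 57.2% in replicate 2. Oprm1-215 has 70.8% and 46.6%, and Oprk1-201 has 47.5% and 5.76%.

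The receptors' coding sequences are related within families. Aligned over their whole length, members of one family shared 60.6% to 67.9% of aligned positions (7 pairs), opioid and somatostatin receptors 56.5% to 58.8% (9 pairs), and the remaining 29 pairs 50.7% to 54.8%. Oprd1 and Oprm1 had 66.6% identity and Sstr1 and Sstr4 67.9%. At the gene level the expected counts of all 10 were whole to within 0.005, as they are where no read is divided with another gene.

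RefSeq promoter windows (GRCm38.p6, 250 bases before to 50 after each start) were found for 8 of the 10 genes, with 3 windows for Oprm1. CpG dinucleotides, which are kept in the promoters of widely active genes, separated the members. The observed CpG count over that expected from base composition was 1.00 for Sstr4, 0.932 for Oprd1 and 0.819 for Sstr2, and 0.179 to 0.328 for the 7 windows of the other 5 genes, against a median of 0.384 over 32851 windows. Level did not follow this split, with Sstr2 (17.2 TPM) and Oprd1 (1.21 TPM) both high in CpG and Ntsr2 (5.16 TPM) and Nmbr (0.595 TPM) both low. A cyclic AMP response element, TGACGTCA, which reads the same on both strands, was found in the window of Sstr2 and in none of the other 9, and in 1.79% of all windows. A GC box, GGGCGG on either strand, was in 3 of the 10 windows (Sstr2, Oprd1 and Nmbr) and in 35.7% of all. TATAAA on either strand was in none, and in 13.6% of all. The 250 bases before the Sstr2 start (chr11:113619077-113619326, plus strand) are shown because they hold both motifs, in capitals and not overlapping, with the response element beginning 58 bases before the start.
Sstr2 upstream: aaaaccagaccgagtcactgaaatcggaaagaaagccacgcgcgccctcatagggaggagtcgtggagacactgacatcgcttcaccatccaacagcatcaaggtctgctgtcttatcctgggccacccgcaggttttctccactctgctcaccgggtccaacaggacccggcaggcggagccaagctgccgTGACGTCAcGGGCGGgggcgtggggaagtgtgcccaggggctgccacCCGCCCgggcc
The 250 bases before the distal Oprm1 start (chr10:6758343-6758592, plus strand), from which the leading Oprm1 transcript is annotated to begin, hold neither motif and are shown as the low-CpG contrast.
Oprm1 upstream: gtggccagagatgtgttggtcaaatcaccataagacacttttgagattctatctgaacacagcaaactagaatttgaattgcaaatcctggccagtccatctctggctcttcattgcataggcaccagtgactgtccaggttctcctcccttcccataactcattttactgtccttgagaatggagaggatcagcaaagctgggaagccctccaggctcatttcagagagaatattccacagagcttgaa
A match of letters does not show that a factor binds, and binding was not measured.

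The precursors of the receptors' ligands were present in the same RNA, with 9 of 12 at 1 TPM or more in both libraries. Somatostatin (Sst) had 107 and 60.8 TPM (84.0 ± 32.9), above all its receptors together (34.9 and 31.2 TPM). Its relative Cort had 0 and 0.51 TPM. Of the opioid precursors, Penk, the source of enkephalins, had 17.3 and 17.7 TPM (17.5 ± 0.290). Pdyn, the source of dynorphins, had 1.80 ± 0.700 TPM, Pnoc, the source of nociceptin, 2.65 ± 0.474 and Pomc, the source of beta-endorphin, 1.12 ± 0.0919. The opioid precursors together had 0.417 and 0.480 of the TPM of the 4 receptors, with most of the receptor sum from Oprl1. Tac1, the source of substance P, had 15.7 and 8.62 TPM (12.2 ± 5.02), while Tac2 had 0.995 ± 0.714 and Tac4 1 count and 0 counts. Nmb and Grp, the ligand genes of Nmbr and Grpr, had 2.19 ± 0.545 and 2.43 ± 0.672 TPM, each above its receptor in both libraries. Nmb was the ligand gene with over 10 counts in each library that moved past 2-fold, by a log2 ratio of 1.32 from 48 and 174 counts. Nts had 4.11 and 1.95 TPM, below Ntsr2 in both libraries.

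**Figure D4:**
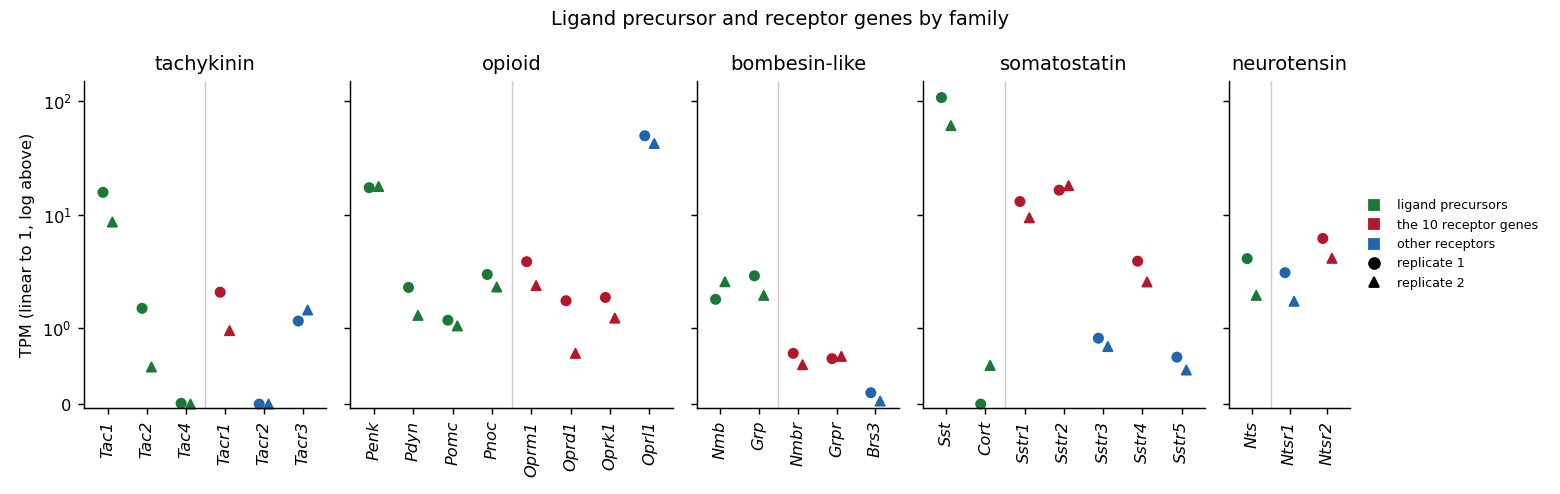
TPM of ligand precursor genes (green), the 10 receptor genes (red) and the other receptors of their families (blue) in replicate 1 (circles) and replicate 2 (triangles), on an axis that is linear to 1 and logarithmic above. Sst (84.0 TPM) is the highest of these genes, and Oprl1 (45.9 TPM) stands far above Oprm1, Oprd1 and Oprk1.

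Set among 67 receptor genes for peptides, the members stood between ranks 4 and 42. Sstr2 and Sstr1 ranked the fourth and the fifth by mean TPM, behind Adcyap1r1, the PACAP receptor (60.2 ± 21.3 TPM), Oprl1, and Ednrb, the endothelin B receptor (43.8 ± 15.8 TPM). Ntsr2 ranked 9, Sstr4 11, Oprm1 12, Oprk1 25, Tacr1 26, Oprd1 32, Grpr 41 and Nmbr 42. These ranks use the point estimates. By posterior means Oprm1 (10.8 TPM) would stand between Sstr1 (11.1 TPM) and Pth1r (6.64 TPM), and Nmbr (0.805 TPM) above Grpr (0.615 TPM). Of the 57 receptors that are not members, 21 reached 1 TPM in both libraries (3 of 7 in the same families and 18 of 50 others). The medians of those lists were 0.815 and 0.905 TPM, below that of all protein-coding genes. Among the 50 others, Pth1r and Crhr1 followed the highest pair with 6.69 and 6.45 TPM, and Avpr1b, Avpr2 and Ghrhr had 0 counts in both libraries.

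**Figure D5:**
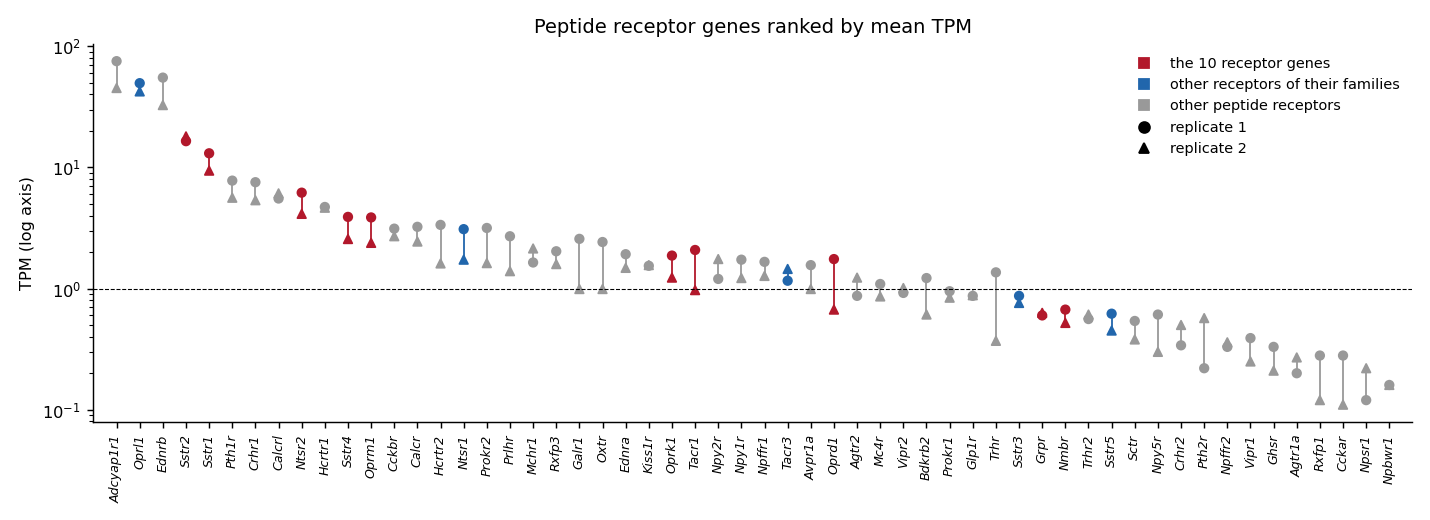
Receptor genes for peptides with a mean above 0.1 TPM, ranked by mean TPM (log axis), with replicate 1 as circles, replicate 2 as triangles and a line joining them. The 10 receptor genes are red, other receptors of their families blue and other peptide receptors grey, and the dashed line marks 1 TPM: Sstr2 (17.2 TPM) is the highest red gene at rank 4 and Nmbr (0.595 TPM) the lowest at rank 42.

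Genes for the proteins through which these receptors signal stood at higher levels than most of the receptors. Of the G protein alpha subunits, 7 of 8 reached 1 TPM in both libraries, with a list median of 27.1 TPM. Gnai2 (83.0 ± 27.6 TPM), Gnao1 (70.4 ± 19.6) and Gnaz (40.0 ± 11.3), all of the Gi/o class, led. Gna11 of the Gq class was at 30.2 ± 5.06, Gnai3 at 15.1 ± 4.89 and Gna14 at 0.165 ± 0.0212. Effector channels and enzymes reached it in 9 of 10 genes with a median of 8.05 TPM. The adenylyl cyclases Adcy1 (42.8 ± 11.1 TPM) and Adcy5 (19.0 ± 5.77) and the phospholipases Plcb4 (14.9 ± 8.28) and Plcb1 (10.5 ± 4.0) were highest. The potassium channel genes Kcnj9 (2.05 ± 0.255) and Kcnj5 (0.260 TPM in both libraries) were lowest. Genes of receptor desensitisation and regulation (receptor kinases, arrestins, RGS proteins and the receptor sorting protein Gprasp1) reached it in 11 of 13 cases with a median of 8.02 TPM, from Gprasp1 (65.8 ± 19.6), Grk2 (31.9 ± 9.23), Arrb1 (25.4 ± 5.77) and Arrb2 (21.9 ± 1.99) down to Rgs20 (1.20 ± 0.453) and Rgs14 (0.125 ± 0.0354). Enzymes that make and break down peptides reached it in 7 of 9 genes with a median of 9.63 TPM, led by carboxypeptidase E (Cpe, 134 ± 22.3) and the convertase chaperone Scg5 (47.7 ± 12.4), with Pam at 18.1 ± 4.87, Ece1 at 9.96 ± 3.25, Pcsk1 at 1.18 ± 0.240 and Anpep at 1.05 ± 0.714.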

How the data were processed

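The authors deposited a gene table and a transcript table for each of the 2 libraries, made from rRNA-depleted RNA sequenced in stranded pairs, per the labels' protocols. Per the deposited file notes the build is mm10 with GENCODE release M4. Which aligner and quantifier were used is not given in the sources used here. By the columns of the deposited tables, expected counts are estimated fragments per gene or transcript, the deposited TPM values are counts per effective length, and the deposited percent values are the part of a gene's TPM assigned to a transcript. The tables also give posterior means and intervals of unstated level. The numbers of fragments behind each gene limit its precision.

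Symbols, transcript types, coding parts and coordinates came from GENCODE release M21 on the same build, matched without version numbers (42462 of 43346 mouse genes, 98.0%). Of the 54 transcripts of the 10 genes, 52 have the same length in both releases, the exceptions being those of Tacr1 and Ntsr2. Expected counts were rounded to whole numbers, scaled by TMM in edgeR 4.0.16 (R 4.3.3) and compared on the log2 scale after adding a prior count of 2. DESeq2 1.42.0 size factors were an alternative. This script was tested on simulated data. Rows that name no mouse gene (1.28% and 1.09% of counts) stayed out. A gene was detected at 1 TPM or more in both libraries. The labels call the libraries independent isolates but give both the same donor, so some of their spread may be technical. A single group of 2 libraries allows no test between groups, and an exact sign-flip test would reach p = 0.5 at the least, so none is printed.

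The 10 genes, the other lists and the rule for named genes were chosen with earlier results of these data known. The text names all members, all receptors and ligand precursors of their families, and transcripts with a mean share of at least 10%. Of each other list of the pathway it names up to 4 of the highest and 2 of the lowest, or 3 where they tied at 0 counts. Other transcripts, and marker genes beyond this rule, were chosen after their values were seen. Galr3 found no match.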

Additional observations from a re-analysis of the deposited data

How the results depend on the processing

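The number of receptor genes at the detection limit depended on the scale. It was 6 of 10 as reported, 10 at a limit of 0.5 TPM and 10 with TPM rescaled over nuclear protein-coding genes. The rescaling removes the share taken by other RNAs and raised the median level from 2.34 to 9.79. Both settings loosen the limit for every nuclear coding gene, and the share of all coding genes past it was not computed. For the 57 other receptors the count of 21 became 32 at 0.5 TPM, 9 at 2 TPM and 40 on the rescaled values. With a limit of 1.5-fold in place of 2-fold, 2 of the 10 genes passed in place of 0. They were Oprd1 (0.546-fold, replicate 2 over replicate 1) and Tacr1 (0.666-fold, close to the limit). Grpr (1.495-fold) and Sstr2 (1.473-fold) fell just short with TMM scaling. The share of all genes past 1.5-fold was not computed, so the count has no background. Spike-in scaling moved the median ratio of all genes to a log2 value of 0.11 and that of Sstr2 to 0.66. With that scaling Sstr2, Grpr (log2 0.68) and Oprd1 (-0.77) passed 1.5-fold and Tacr1 (-0.48) did not. The count of separated pairs stayed within 1.5 times under every alternative run (33 to 42, against 36). It does not show that the same pairs were separated in the same direction. With posterior means the intervals still came from the expected counts, and the rule did not ask for the main direction. By posterior means Oprm1 (11.92 and 9.59 TPM) stood above Ntsr2 (6.12 and 4.12 TPM), the reverse of the point estimates. The runs on 1 library had no SD to exceed. The count of 5 genes with the same leading transcript was 4 with posterior mean shares and 4 where a share of at least 50% was asked, Oprm1 being the exception in both. No paired analysis was possible because the libraries form a single group. Of the single levels, posterior means moved 2 of 10 beyond the spread between libraries, Oprm1 (3.12 to 10.8 TPM) and Nmbr (0.595 to 0.805 TPM). Depth limits the transcript shares of Nmbr most, which rest on 71 and 95 counts.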
